A study of Canis lupus familiaris with 22 samples.

Results

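Regulators and marker genes of epithelial-mesenchymal transition (EMT) were compared between canine invasive urothelial carcinoma (iUC) and normal canine bladder. The 10 genes were chosen by their symbols and comprised the cadherins CDH1 and CDH2, the splicing factor ESRP1, the transcription factors SNAI1, SNAI2, ZEB1, ZEB2, TWIST1 and TWIST2, and the filament gene VIM. All 10 were on the array, with 16 of the 29254 probe sets that carry a single gene symbol and 10 of the 15115 genes these name. ZEB1 had 5 probe sets, CDH2 and ESRP1 had 2 each, and the other 7 genes had 1.

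The 18 iUC samples were tumors of high grade that had arisen naturally in dogs and were taken by cystoscopy before therapy. The 4 normal bladder samples came from healthy dogs without tumors. RNA was taken from fresh tissue without any sorting of cells that the sources name, 1 sample to each Affymetrix Canine 2.0 array, and the samples of a group were biological replicates. The labels give no age, sex or layer of the bladder wall.

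EMT is a change of state in which epithelial cells loosen the contacts between them and take on features of motile mesenchymal cells. E-cadherin, the product of CDH1, holds neighbouring epithelial cells together, and the SNAI, ZEB and TWIST factors can repress its gene, while N-cadherin (CDH2) and vimentin (VIM) mark mesenchymal cells. The bladder wall holds both kinds of tissue side by side, since a urothelium lines a stroma of fibroblasts and vessels and a thick coat of smooth muscle, and cells of the stroma and muscle make VIM, SNAI2 and the ZEB factors without any transition.

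The deposited values are on a log2 scale and each probe set is centred on its median over the 22 arrays, so that a value of 1 means a signal 2-fold above the middle sample and no expression level remains. Values of different genes were therefore not set against each other. A probe set was called where the adjusted p of limma was 0.05 or below and the fold change was 2 or more. Several arrays stood apart before any comparison was made. By their Affymetrix Tag controls, which match no dog transcript, the iUC arrays parted into 7 with high signal (means of 0.277 to 0.460) and 11 with low signal (-0.128 to 0.131), and the normal arrays lay between -0.215 and -0.0768. The 7 high Tag arrays also had the lowest means over 13 GAPDH and actin control probe sets, between -1.21 and -0.626, against -0.363 to 0.316 on the low Tag arrays and -0.452 to 0.393 on the normal arrays. The values of the 7 and the 11 did not overlap at 27.0% of all probe sets, so results are given with and without the 7. Normal bladder replicates 3 and 4 correlated with each other at 0.93 over all probe sets, against at most 0.76 for any other pair of normal samples. The sample descriptions of all iUC samples and normal bladder replicate 1 share an ending that those of the other 3 normal samples lack.

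The tissue of the normal samples differed among the 4 replicates. The mean of 13 urothelium markers ranged between -1.36 and 0.65 in iUC samples, while it was -0.53, -0.02, -1.76 and -3.47 in normal bladder replicates 1 to 4. For 10 smooth muscle markers the mean ran between -0.35 and 1.24 in iUC samples, and it was 3.39, 2.30, 3.76 and 4.29 in the normal replicates. The fibroblast marker mean lay between -1.16 and 0.87 in iUC samples and between 0.96 and 2.25 in normal bladder. All 4 normal samples thus stood above all 18 iUC samples in smooth muscle and fibroblast markers, and replicate 4 had the lowest urothelium mean of the 22 samples. The part of this difference in tissue in the results below was not tested, and fewer cells of a type cannot be told apart from less RNA per cell in such samples.

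Of the 16 probe sets, 10 were called, 2 higher in iUC samples and 8 lower, against 14.6% of all 42924 probe sets called, 3.90% higher and 10.7% lower. The 2 higher ones belonged to the epithelial genes CDH1 and ESRP1, and the 8 lower ones to SNAI2, ZEB1, ZEB2, CDH2 and VIM. SNAI1, TWIST1 and TWIST2 had no called probe set. With the 11 low Tag iUC arrays alone 3 were higher and 8 lower, where 5.04% and 7.30% of all probe sets were, and with the 7 high Tag arrays alone 2 and 8, where 8.42% and 20.3% were. At 7 of the 16 the values of the groups did not overlap, against 6.73% of all probe sets. The median log2 fold change, iUC minus normal bladder, was -0.72 over the 16 probe sets and 0.04 over all. With the mean of its probe sets standing for each gene, 5 of the 10 genes were called, CDH1 higher and SNAI2, ZEB1, ZEB2 and VIM lower.

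**Figure D1:**
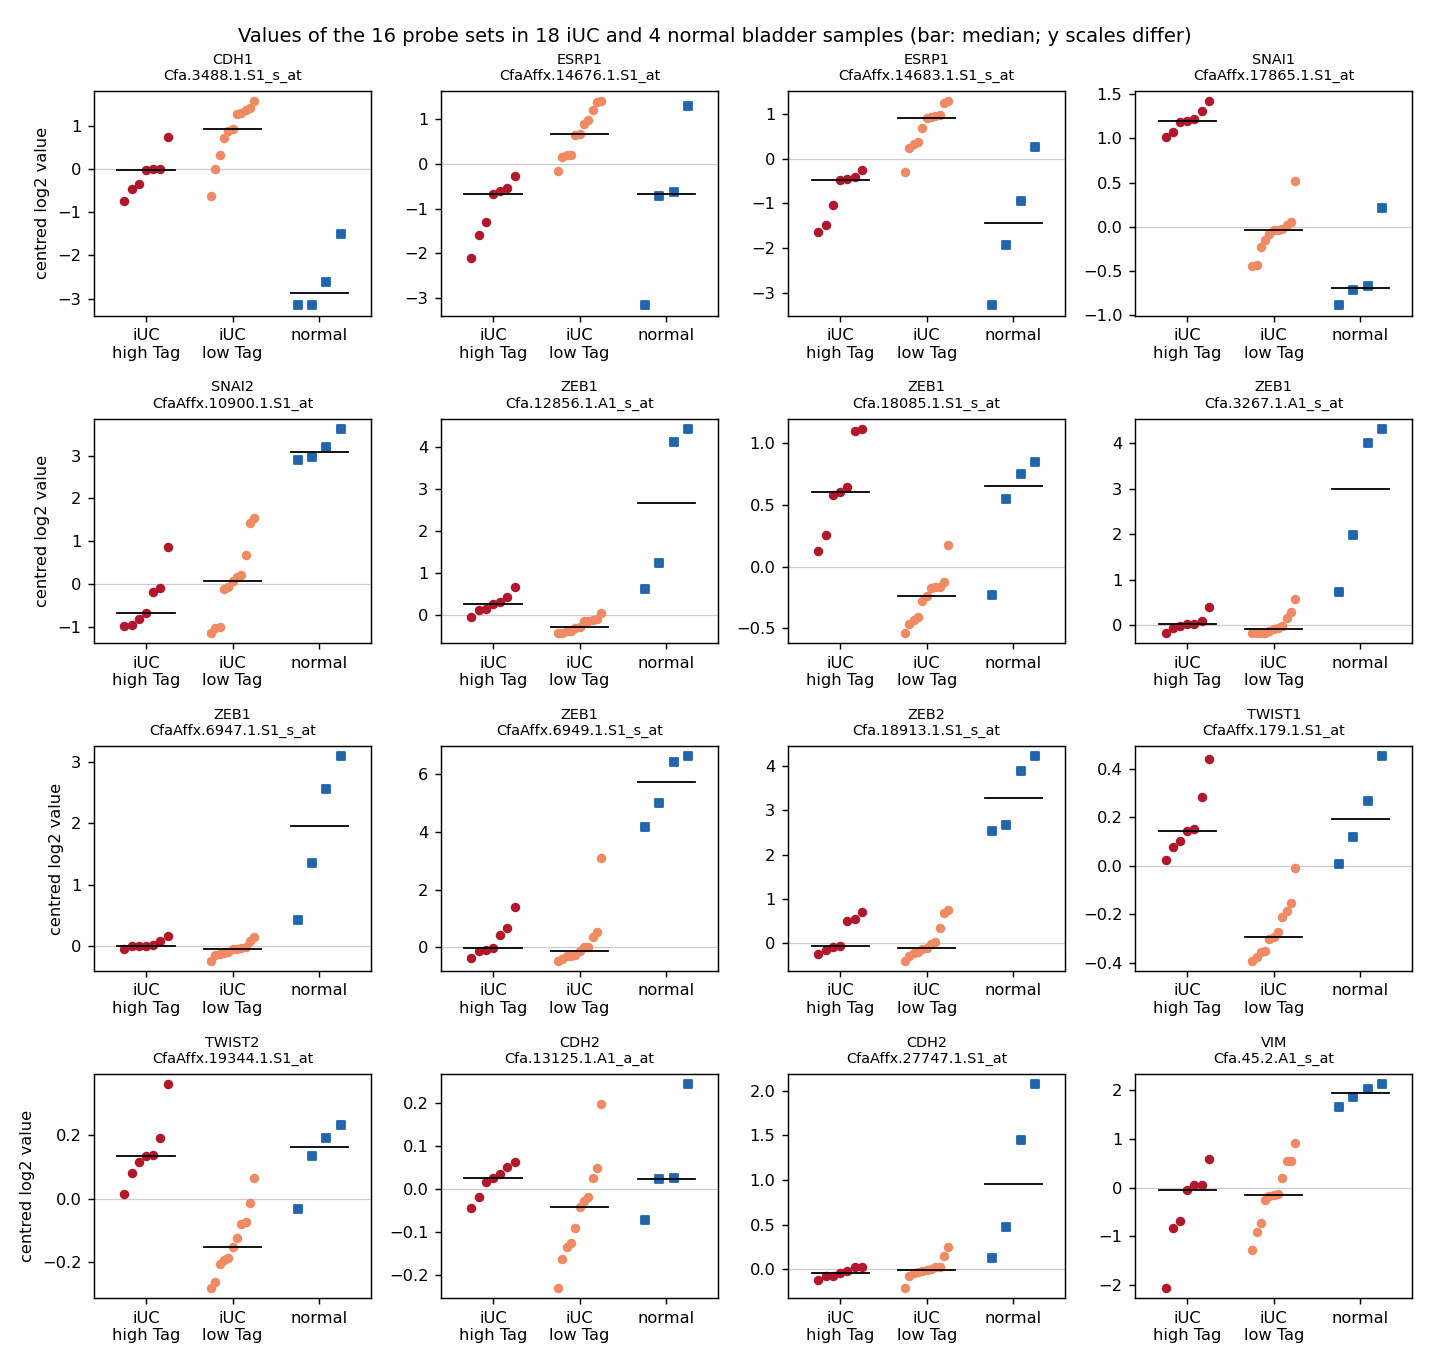
Centred log2 value (vertical axes, 1 panel for each of the 16 probe sets) of every sample, for high Tag iUC, low Tag iUC and normal bladder from left to right, with points ordered by value within a group. CDH1 is above all 4 normal samples in all 18 iUC samples, SNAI2, ZEB2 and VIM are below them in all 18, and SNAI1 and TWIST1 separate the high Tag from the low Tag iUC arrays.

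CDH1 was higher in iUC samples. Its probe set (Cfa.3488.1.S1_s_at) had a lowest value of -0.75, a median of 0.53 and a highest value of 1.57 in iUC samples, against -1.51, -2.61, -3.15 and -3.14 in normal bladder replicates 1 to 4. All 18 iUC samples lay above all 4 normal samples, and the normal sample nearest to them was replicate 1. Normal replicates 1 and 2 were above replicates 3 and 4 in CDH1 and also in the urothelium marker mean. Between replicates 1 and 2, CDH1 was higher in replicate 1 and the urothelium mean in replicate 2 (-0.53 and -0.02). The difference of the group means was a log2 fold change of 3.06 (SE 0.41, 95% confidence interval 2.22 to 3.91, n = 18 and 4), or 8.37-fold, at an adjusted p of 9.74e-06 in limma. It was 3.44 without the 7 high Tag iUC arrays and 2.48 with these alone. With the ending of the sample description as a block, which leaves normal bladder replicate 1 as the only normal sample within the ending of the tumors, the log2 fold change was 1.97 and was not called (adjusted p = 0.267). Among the iUC samples CDH1 varied more than most genes did, with a standard deviation of 0.76 that exceeded those of 85.6% of all probe sets.

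The 4 catenins that link E-cadherin to the cytoskeleton or stabilize it at the membrane were each above 0 in log2 fold change, with a median of 0.64, and 1 of the 4 passed the test, where 3.68% of all genes were called higher. Without the high Tag iUC arrays the median was 1.09 and 2 of the 4 were called higher. JUP, which codes for plakoglobin of adherens junctions and desmosomes, was higher by 1.24 (SE 0.36, adjusted p = 0.0113 in limma on gene means). CTNNB1, the gene of β-catenin, had 0.52 (SE 0.30) and CTNNA1, the gene of α-catenin, had 0.75 (SE 0.38), and neither passed. CTNND1, which codes for p120 catenin, had 0.48 (SE 0.22) and did not pass either.

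ESRP1 directs the splicing of epithelial isoforms of FGFR2 and other transcripts. Its probe sets CfaAffx.14676.1.S1_at and CfaAffx.14683.1.S1_s_at followed each other across tumors, with a Pearson r of 0.75 over the 7 high Tag and 0.93 over the 11 low Tag iUC arrays. The values at CfaAffx.14683.1.S1_s_at were -1.63 at the lowest, 0.29 at the median and 1.29 at the highest in iUC samples, while normal bladder replicates 1 to 4 had -0.94, 0.26, -1.93 and -3.28. The groups overlapped, since normal replicates 1 and 2 lay within the range of the tumors. This probe set was higher in iUC samples by 1.58 (SE 0.54, 95% confidence interval 0.45 to 2.70), at an adjusted p of 0.0290 in limma. With the high Tag iUC arrays alone the log2 fold change was 0.66 and was not called (adjusted p = 0.323), and with the low Tag arrays alone it was 2.17 (adjusted p = 0.00274). The call was also lost without normal bladder replicate 4 (0.98, adjusted p = 0.199) or replicate 3 (1.43, adjusted p = 0.104), with the ending of the sample description as a block (1.04, adjusted p = 0.880) and after quantile normalization (1.37, adjusted p = 0.0518).

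At the other ESRP1 probe set, CfaAffx.14676.1.S1_at, iUC samples had -2.11, 0.17 and 1.40 at the lowest, median and highest, against -0.71, 1.31, -0.62 and -3.17 in normal bladder replicates 1 to 4. Here 2 of 18 iUC samples lay above all normal samples, and the log2 fold change of 0.82 (SE 0.63, 95% confidence interval -0.48 to 2.13) did not pass the test (adjusted p = 0.299 in limma). The high Tag arrays were all below the low Tag arrays at this probe set. Set against normal bladder alone they had -0.22, while the low Tag arrays had 1.48 (adjusted p = 0.0471). As a mean of both probe sets ESRP1 had a log2 fold change of 1.20 (SE 0.57) and was not called (adjusted p = 0.100). The standard deviations of ESRP1 among iUC samples exceeded those of 95.7% and 92.3% of all probe sets. Among the normal samples the order of the ESRP1 values at both probe sets had replicate 2 highest and replicate 4 lowest, as had the urothelium marker mean.

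Other epithelial genes were read from a list of 34 genes of junctions, polarity, keratins and epithelial transcription factors, of which 32 were measured. Of these, 20 were higher in iUC samples and 12 did not pass, with a median log2 fold change of 1.33, against the same 3.68% of all genes and a median of 0.08 over all genes. MUC1, a mucin of the apical membrane, was higher by 3.39 (SE 0.42, adjusted p = 3.46e-06 in limma). KRT8, a keratin of simple epithelia and of urothelium, was higher by 2.47 (SE 0.58), and CLDN4, a claudin of tight junctions, by 2.40 (SE 0.61). The transcription factors OVOL1 and GRHL3, which uphold epithelial identity, were also among those called, at 1.66 (SE 0.26) and 1.06 (SE 0.26). GRHL2 and OVOL2, relatives of these factors, had 0.41 (SE 0.10) and 0.86 (SE 0.42) and were not called, GRHL2 because its fold was under 2. Urothelium markers, which share 5 measured genes with this list, were called higher in 7 of 13 with a median of 1.62.

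**Figure D2:**
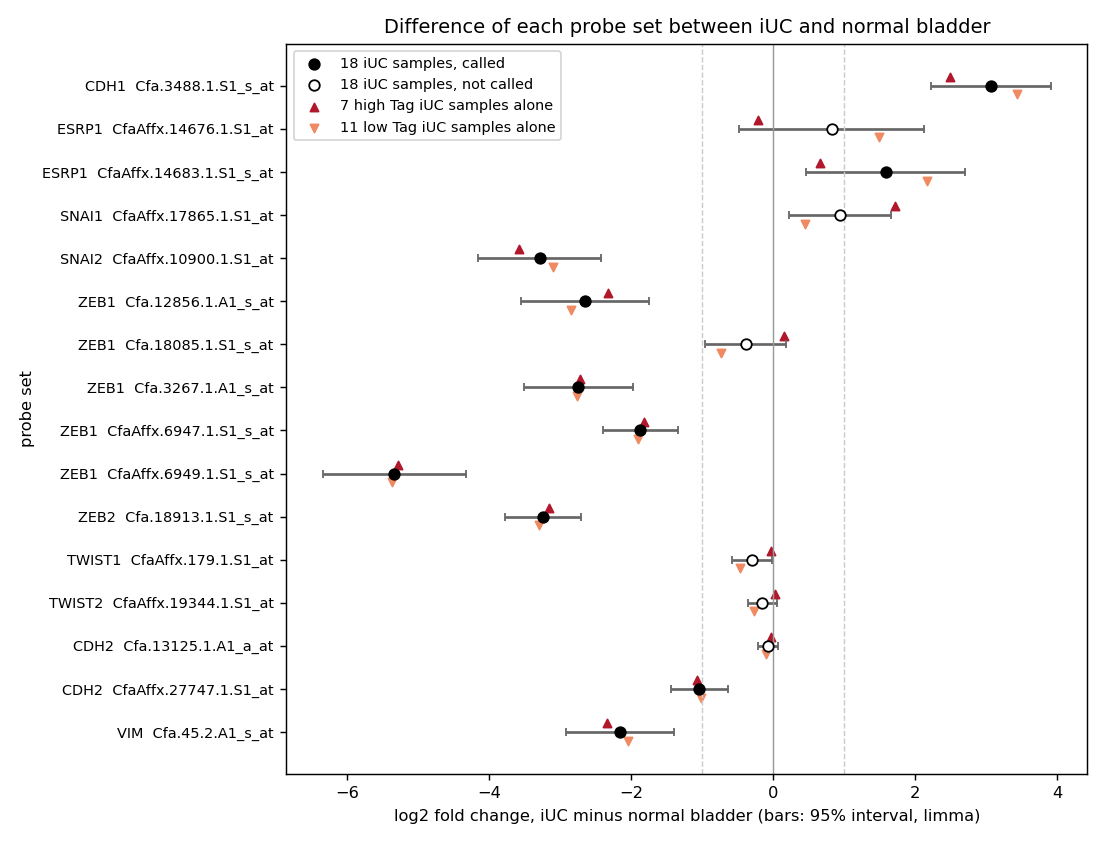
Log2 fold change, iUC minus normal bladder (horizontal axis), of each of the 16 probe sets over all 18 iUC samples (circles, filled where called) with its 95% confidence interval from limma (bars), and over the 7 high Tag (upward triangles) or 11 low Tag iUC arrays alone (downward triangles). Dashed lines mark a fold of 2. CDH1 lies at 3.06 and the ZEB1 probe set CfaAffx.6949.1.S1_s_at at -5.34, while TWIST2 and 1 CDH2 probe set lie close to 0.

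Of the SNAI factors, SNAI2 was lower in iUC samples and SNAI1 was not called. SNAI2 codes for Slug, a zinc finger repressor of CDH1. In iUC samples SNAI2 (CfaAffx.10900.1.S1_at) had -1.14 at the lowest, -0.10 at the median and 1.54 at the highest, against 2.97, 2.89, 3.63 and 3.21 in normal bladder replicates 1 to 4. The highest tumor stayed below the lowest normal sample. Replicate 3 was the highest normal sample, then 4, 1 and 2, which is also the order of the fibroblast marker means. Those means were 2.02, 0.96, 2.25 and 2.11 in normal replicates 1 to 4. The smooth muscle marker mean was highest in replicate 4. SNAI2 had a log2 fold change of -3.29 (SE 0.42, 95% confidence interval -4.15 to -2.42), or 9.77-fold lower, at an adjusted p of 5.37e-06 in limma. It was -3.10 without the high Tag iUC arrays and -3.58 with them alone, and SNAI2 was called under each of the alternatives run, with log2 fold changes between -3.58 and -2.05.

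SNAI1 codes for Snail, the relative of Slug. Its probe set (CfaAffx.17865.1.S1_at) had -0.44, 0.04 and 1.42 at the lowest, median and highest of the iUC samples, and 0.21, -0.89, -0.67 and -0.71 in normal bladder replicates 1 to 4. Normal replicate 1 lay among the tumors and the other 3 normal samples below all of them. The log2 fold change of 0.94 (SE 0.35, 95% confidence interval 0.21 to 1.66, adjusted p = 0.0411 in limma) fell short of a fold of 2. The 7 high Tag iUC arrays carried much of it, with values between 1.01 and 1.42, against -0.44 to 0.52 on the 11 low Tag arrays. Against normal bladder the high Tag arrays alone had 1.72 (adjusted p = 1.76e-05) and the low Tag arrays alone 0.44 (adjusted p = 0.0746). SNAI1 was 1 of 3 of the 16 probe sets at which the Tag sets did not overlap, the others being TWIST1, also higher on the high Tag arrays, and the first ESRP1 probe set, lower on them, against the 27.0% of all probe sets given above.

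ZEB1 was lower in iUC samples at 4 of its 5 probe sets. ZEB1 codes for a zinc finger and homeodomain factor that represses CDH1 and, with the miR-200 family, forms a loop of mutual repression. The largest of the 16 differences was at the ZEB1 probe set CfaAffx.6949.1.S1_s_at, where iUC samples had -0.47, -0.05 and 3.09 at the lowest, median and highest, against 5.02, 4.16, 6.43 and 6.63 in normal bladder replicates 1 to 4. All tumors were below all normal samples, and 1 tumor, iUC replicate 12, stood well above the other 17, the next of which had 1.38. In limma the log2 fold change was -5.34 (SE 0.49, 95% confidence interval -6.35 to -4.33), or 40.5-fold lower, at an adjusted p of 5.33e-08.

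The ZEB1 probe set Cfa.3267.1.A1_s_at was between -0.17 and 0.56 in iUC samples and at 1.98, 0.74, 4.01 and 4.32 in normal bladder replicates 1 to 4, a log2 fold change of -2.74 (SE 0.37) with no overlap. At CfaAffx.6947.1.S1_s_at iUC samples lay between -0.23 and 0.17, while the normal replicates had 1.35, 0.42, 2.56 and 3.09, a log2 fold change of -1.87 (SE 0.25). At Cfa.12856.1.A1_s_at iUC samples had values between -0.43 and 0.66, against 1.23, 0.62, 4.13 and 4.44 in the normal replicates, a log2 fold change of -2.65 (SE 0.43), and 17 of 18 iUC samples lay below all normal samples. At all 3, as at the other ZEB1 probe sets, the normal samples had the same order, with replicate 4 highest, then 3, 1 and 2. This is also the order of the smooth muscle and the endothelial marker means. The endothelial means were 0.38, 0.24, 1.30 and 1.41 in normal replicates 1 to 4. With the ending of the sample description as a block, these 3 probe sets were not called (log2 fold changes of -1.96, -1.37 and -1.28), and CfaAffx.6949.1.S1_s_at was.

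The remaining ZEB1 probe set, Cfa.18085.1.S1_s_at, differed from the others. Its values in iUC samples were -0.54 at the lowest, -0.15 at the median and 1.12 at the highest, and those of normal bladder replicates 1 to 4 were 0.55, -0.23, 0.75 and 0.85. The groups overlapped and the log2 fold change of -0.39 (SE 0.28, 95% confidence interval -0.97 to 0.18) did not pass (adjusted p = 0.262 in limma). The direction turned with the Tag sets, at 0.15 for the high Tag arrays alone and -0.74 for the low Tag arrays alone, and the low Tag value fell short of a fold of 2. Across tumors the Pearson r of the 10 pairs of ZEB1 probe sets ran between -0.02 and 0.80 on the high Tag arrays and between 0.35 and 0.88 on the low Tag arrays. As a mean of the 5, ZEB1 had a log2 fold change of -2.60 (SE 0.31).

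ZEB2, the relative of ZEB1 and likewise a repressor of CDH1, was lower in iUC samples. Its probe set (Cfa.18913.1.S1_s_at) had -0.40, -0.08 and 0.74 at the lowest, median and highest of the iUC samples, against 2.67, 2.54, 3.89 and 4.22 in normal bladder replicates 1 to 4. The gap between the highest tumor and the lowest normal sample was wider than the whole range of the tumors. The normal samples had the order of the smooth muscle and the endothelial marker means, with replicate 4 highest. A log2 fold change of -3.25 (SE 0.26, 95% confidence interval -3.78 to -2.71), or 9.49-fold lower, had an adjusted p of 7.51e-09 in limma. It was -3.30 without the high Tag iUC arrays and -3.16 with them alone, and ZEB2 was called under each of the alternatives run.

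The TWIST factors, basic helix-loop-helix proteins that can induce EMT, differed little between the groups. TWIST1 (CfaAffx.179.1.S1_at) had -0.39, -0.17 and 0.44 at the lowest, median and highest of the iUC samples, and 0.12, 0.01, 0.45 and 0.27 in normal bladder replicates 1 to 4. The log2 fold change was -0.30 (SE 0.13, 95% confidence interval -0.58 to -0.03, adjusted p = 0.0793 in limma). The Tag sets parted at TWIST1, with 0.02 to 0.44 on the high Tag arrays and -0.39 to -0.01 on the low Tag arrays, and the 11 low Tag tumors lay below all normal samples with a log2 fold change of -0.48. TWIST2 (CfaAffx.19344.1.S1_at) ranged between -0.28 and 0.36 in iUC samples and was 0.19, -0.03, 0.23 and 0.13 in the normal replicates, so that the groups overlapped. Its log2 fold change was -0.16 (SE 0.10, adjusted p = 0.198 in limma). For both genes the fold was under 2 in all alternatives run.

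Of the mesenchymal markers, VIM was lower in iUC samples. VIM codes for vimentin, the intermediate filament of mesenchymal cells. Its probe set (Cfa.45.2.A1_s_at) had -2.07, -0.14 and 0.93 at the lowest, median and highest of the iUC samples, against 2.13, 1.65, 2.03 and 1.87 in normal bladder replicates 1 to 4. The 4 normal samples lay close together and above all 18 tumors. Replicate 1 was the highest of them, as it was in the leukocyte marker mean, and replicate 2 the lowest. The smooth muscle marker mean was highest in replicate 4 and the fibroblast marker mean in replicate 3, and both were lowest in replicate 2. VIM differed by a log2 fold change of -2.16 (SE 0.37, 95% confidence interval -2.92 to -1.40), or 4.47-fold lower, at an adjusted p of 1.51e-04 in limma. With the ending of the sample description as a block it was -2.37 and was not called (adjusted p = 0.0927).

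CDH2, the gene of N-cadherin, was lower in iUC samples at 1 of its 2 probe sets. At CfaAffx.27747.1.S1_at iUC samples were between -0.21 and 0.25, around a median of -0.02, and normal bladder replicates 1 to 4 had 0.47, 0.12, 1.45 and 2.08. Here 16 of 18 iUC samples lay below all normal samples, and replicates 3 and 4 stood above the other normal samples. The standard deviation was 0.10 in iUC samples and 0.89 in normal bladder, while limma took 1 spread for both groups. The log2 fold change was -1.04 (SE 0.19, 95% confidence interval -1.44 to -0.64), a 2.06-fold difference at an adjusted p of 3.63e-04 in limma. It was -0.90 without normal bladder replicate 3 and -0.69 without replicate 4, which took it under the fold of 2. The call was also lost with the ending of the sample description as a block (-0.48, adjusted p = 0.863), after quantile normalization (-0.64) and after scaling to the 75th percentile (-0.93). At Cfa.13125.1.A1_a_at iUC samples lay between -0.23 and 0.20 and the normal replicates had -0.07, 0.24, 0.03 and 0.02, with a log2 fold change of -0.08 (SE 0.07, adjusted p = 0.349 in limma). The CDH2 probe sets correlated at 0.44 over the high Tag and -0.33 over the low Tag iUC arrays. The standard deviation of each among iUC samples exceeded those of under 10% of all probe sets, 8.24% and 8.30%.

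A list of 32 other mesenchymal genes, with 29 measured, held 17 that were lower in iUC samples and 12 that did not pass, at a median log2 fold change of -1.74, against 8.64% of all genes called lower. TAGLN and ACTA2, contractile genes of smooth muscle and myofibroblasts, were lower, with log2 fold changes of -4.58 (SE 0.52) and -4.49 (SE 0.63), and so was TNC, the matrix protein tenascin C, at -3.95 (SE 0.28, adjusted p = 1.42e-09 in limma). CDH11, a cadherin of mesenchymal cells, was lower as well, at -2.91 (SE 0.30), and FN1, fibronectin, at -1.69 (SE 0.64, adjusted p = 0.0453). MMP2, a matrix protease, had -0.19 (SE 0.26) and PRRX1, a mesenchymal homeobox factor, -0.28 (SE 0.19), and neither passed. MMP9, another matrix protease, and FOXC2, a forkhead factor, had values above 0, at 0.77 (SE 0.21, adjusted p = 0.00744) and 0.40 (SE 0.15, adjusted p = 0.0413), at folds under 2. Of the 29 genes, 6 are also in the fibroblast marker list.

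Markers of the cell types of the bladder wall were read in the same comparison, in which 8.64% of all genes were called lower and 3.68% higher. Smooth muscle markers were lower in 7 of 10, with a median log2 fold change of -4.10, led by CNN1 at -5.83 (SE 0.40), MYLK at -5.60 (SE 0.38) and DES at -5.60 (SE 0.43). Among 10 fibroblast markers 8 were lower and 1, PDGFRA, was higher, with a median of -2.58, and DCN had the largest fall at -3.40 (SE 0.67), followed by DPT at -3.24 (SE 0.31) and COL1A2 at -3.17 (SE 0.53). Endothelial markers were lower in 3 of 10, namely EMCN at -2.33 (SE 0.53), KDR at -1.46 (SE 0.56) and CLDN5 at -1.03 (SE 0.27). Leukocyte markers were lower in 1 of 13, CORO1A at -1.05 (SE 0.25), which is near the share of all genes. SNAI2, ZEB1, ZEB2, VIM and 1 CDH2 probe set thus fell alongside the smooth muscle and fibroblast markers, and their part in the falls of the 5 genes was not tested.

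**Figure D3:**
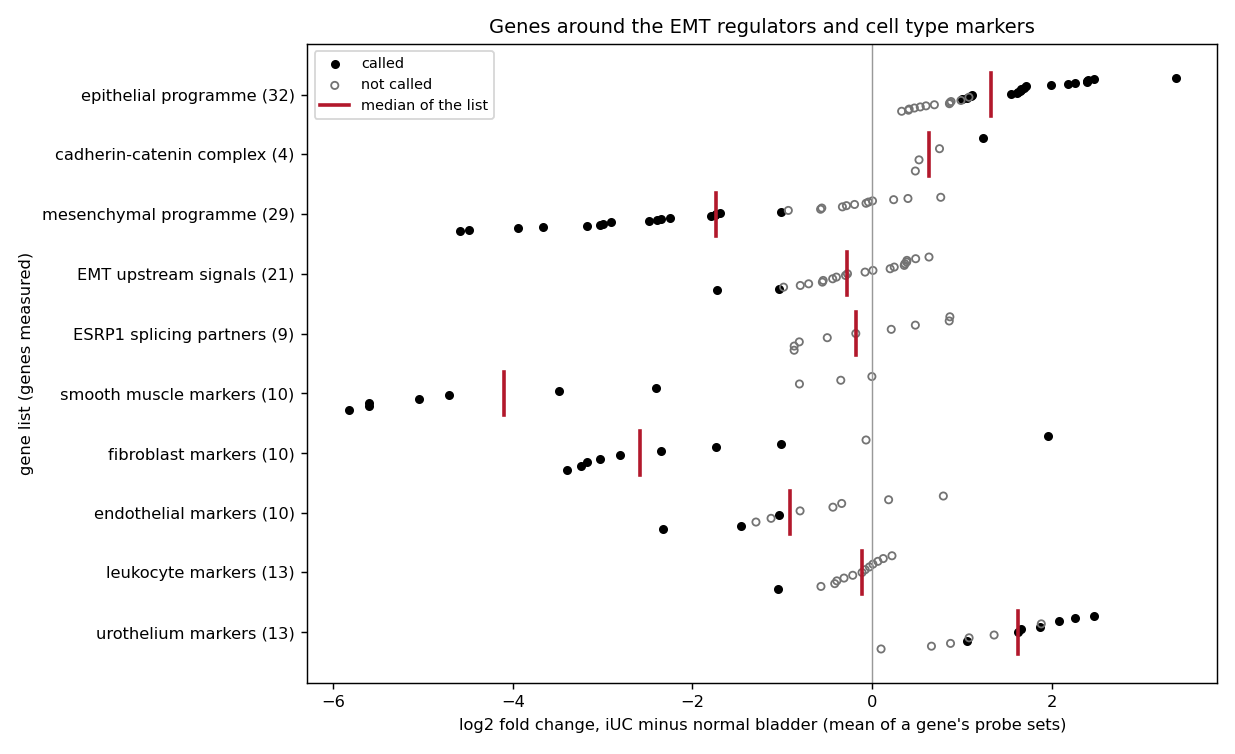
Log2 fold change, iUC minus normal bladder (horizontal axis), of every measured gene of each list as the mean of its probe sets, with called genes set off from the others and the median of each list marked. The epithelial list lies to the right of 0 with a median of 1.33, the mesenchymal list to the left with -1.74, and the smooth muscle markers farthest left with -4.10.

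Genes upstream of the EMT factors were mostly not called. Of 21 ligands, receptors and signal transducers 2 were lower in iUC samples and 19 did not pass, a share close to the 8.64% of all genes called lower. The median log2 fold change was -0.27, and it turned to 0.11 without the 7 high Tag iUC arrays. ILK, a kinase at integrin adhesions, was lower, with a log2 fold change of -1.73 (SE 0.27, adjusted p = 6.77e-05 in limma), and TGFB1, the ligand that induces EMT in many epithelial cells, was lower at -1.04 (SE 0.24, adjusted p = 0.00267). The TGF-β receptor gene TGFBR2 had 0.01 (SE 0.49), and SMAD3, a transducer of that pathway, had 0.49 (SE 0.16, adjusted p = 0.0245) at a fold under 2. NOTCH1, a receptor that can induce SNAI2, had 0.64 (SE 0.16, adjusted p = 0.00566), also at a fold under 2.

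Splicing factors and targets linked to ESRP1 numbered 9, and none passed both thresholds of limma, although 5 of the 9 had an adjusted p of 0.05 or below at a fold under 2, and 6 had an unadjusted p of 0.05 or below, 3 higher and 3 lower. ESRP2, the paralog of ESRP1, had a log2 fold change of 0.87 (SE 0.33, adjusted p = 0.0474), and PTBP1, a repressor of exon use, had 0.86 (SE 0.26, adjusted p = 0.0136). RBFOX2, QKI and MBNL1, splicing factors with high activity in mesenchymal or muscle cells, had -0.81 (SE 0.13), -0.50 (SE 0.14) and -0.87 (SE 0.32). FGFR2 and CD44, whose exon choice ESRP1 governs, had 0.21 (SE 0.30) and -0.87 (SE 0.50), and these values give no account of their isoforms. Without the 7 high Tag iUC arrays 2 of the 9 were called higher.

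Relations among the 10 genes across tumors were computed within each Tag set. The tumors were known from an earlier reading of these data to fall into 2 clusters that the Tag controls also part. Of the 16 probe sets of the members, 3 parted by Tag set, against 27.0% of all probe sets. Over the 45 pairs in both sets, 90 relations in all, 0 had an adjusted p of 0.05 or below by permutation for Pearson's r (lowest 0.0965) or Spearman's rho (lowest 0.0783), and 11 had an unadjusted p of 0.05 or below by each. In the low Tag set the largest r were those of SNAI2 with VIM, CDH1 with SNAI2 and ZEB1 with ZEB2. ZEB1 and ZEB2 varied together, with r = 0.77 and rho = 0.85 (n = 11, permutation p = 0.00391 and 0.00156, adjusted p = 0.0965 and 0.0783), and r was 0.44 without the 2 tumors farthest from the median of ZEB1. SNAI2 and VIM had r = 0.79 and rho = 0.82 (n = 11, permutation p = 0.00421 and 0.00325, adjusted p = 0.0965 and 0.0783), and r was 0.62 without 2 tumors. Part of the ZEB1 relation therefore rested on 2 tumors.

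ZEB2 and VIM were related in the same direction in both sets. Their r was 0.81 and rho 0.96 over the 7 high Tag arrays (exact permutation p = 0.0119 and 0.00278, adjusted p = 0.135 and 0.0783), and r was 0.73 and rho 0.71 over the 11 low Tag arrays (permutation p = 0.0120 and 0.0193, adjusted p = 0.135 and 0.306). Without the 2 tumors farthest from the median of ZEB2, r was 0.69 and 0.46. CDH1 and its repressor SNAI2 ran in opposite directions over the low Tag arrays, with r = -0.78 and rho = -0.53 (n = 11, permutation p = 0.00429 and 0.100, adjusted p = 0.0965 and 0.500). Without 2 tumors r was -0.41, and over the 7 high Tag arrays r was 0.44, so the inverse relation was present in 1 of the 2 sets and weak without 2 tumors. The difference between the sets was not tested.

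**Figure D4:**
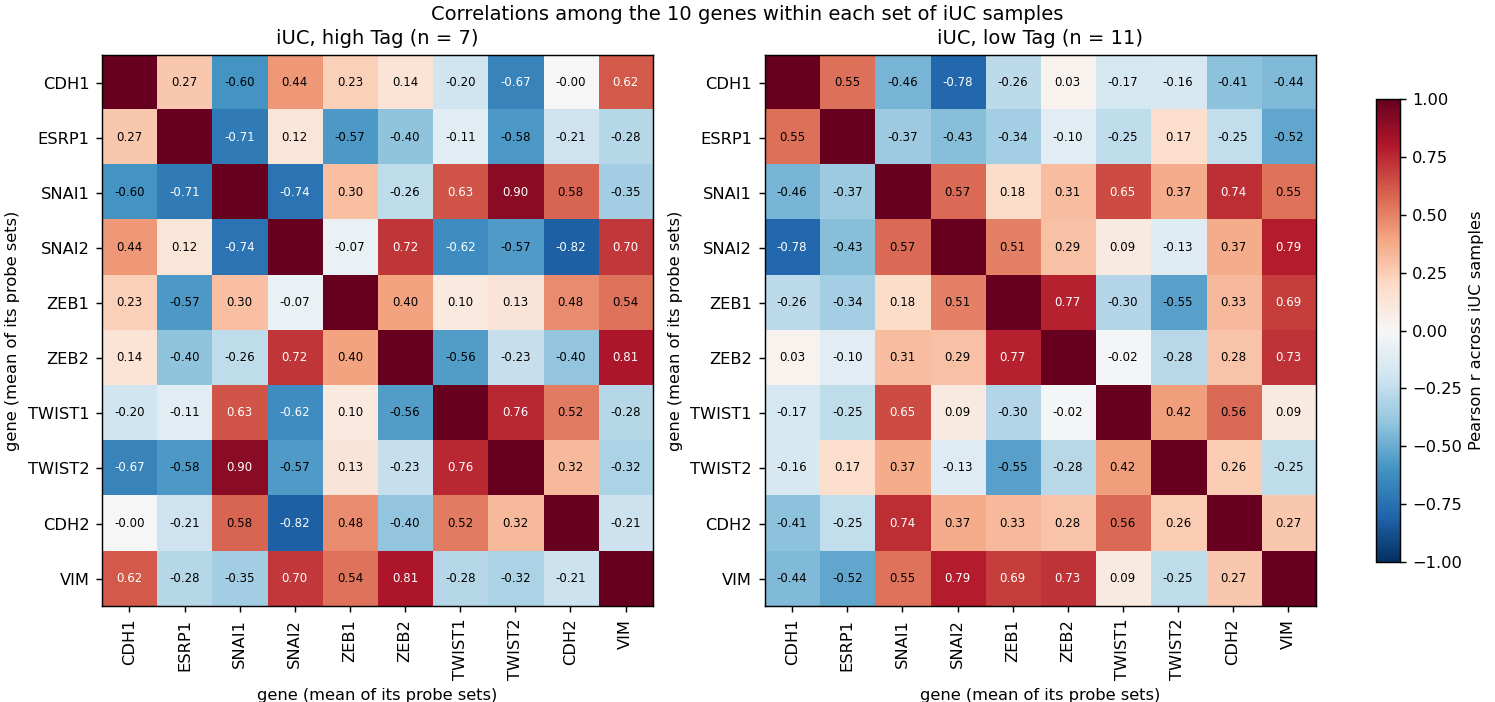
Pearson r of every pair of the 10 genes (mean of probe sets) over the 7 high Tag iUC arrays, left, and the 11 low Tag iUC arrays, right. ZEB1 with ZEB2 (0.77), SNAI2 with VIM (0.79) and CDH1 with SNAI2 (-0.78) stand out in the low Tag set, and ZEB2 with VIM is positive in both sets.

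CDH1 and ESRP1, the epithelial genes of the group, had r = 0.55 over the low Tag arrays, which was -0.17 without 2 tumors, and 0.27 over the high Tag arrays. The pair SNAI1 and TWIST2 had the highest r of all, 0.90 over the 7 high Tag arrays (exact permutation p = 0.00397, adjusted p = 0.0965, rho = 0.86). Without the 2 tumors farthest from the median of SNAI1 this r was 0.95. It was 0.68 after quantile normalization and 0.67 after scaling to the 75th percentile (exact permutation, adjusted p = 0.688 and 0.388), and after that scaling it was -0.38 without 2 tumors. SNAI1 and CDH2 had r = 0.74 and rho = 0.82 over the low Tag arrays (n = 11, permutation p = 0.00712 and 0.00348, adjusted p = 0.112 and 0.0783). TWIST2 and CDH2 both had a small spread among tumors. The r of SNAI1 and CDH2 was 0.45 after quantile normalization and 0.23 with 1 probe set for each gene. It was 0.77 after scaling to the 75th percentile and 0.76 without iUC replicate 12.

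**Figure D5:**
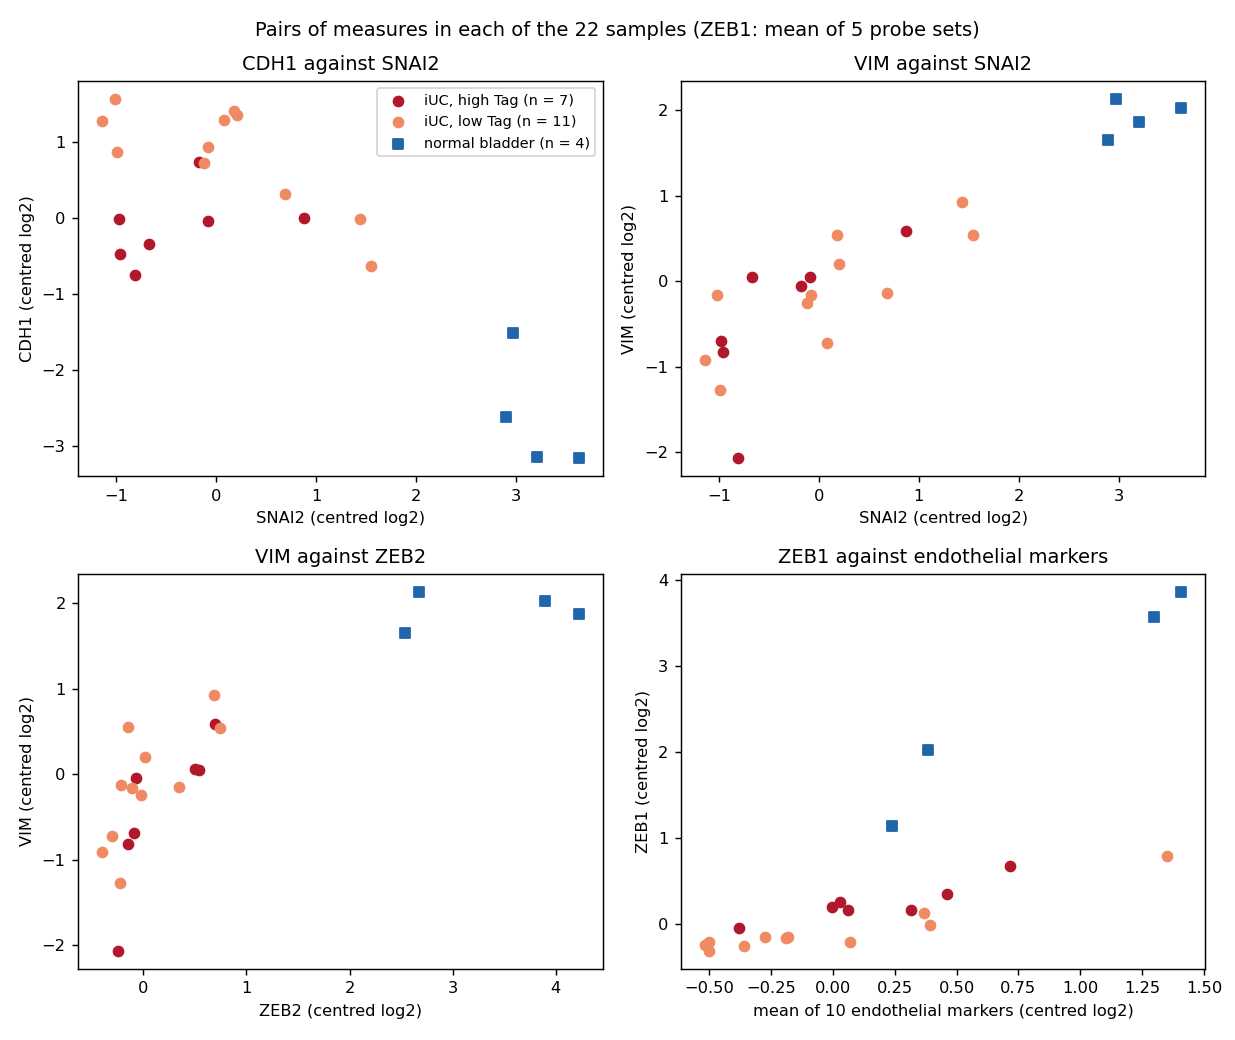
Centred log2 values of all 22 samples for 4 pairs of measures, with high Tag iUC, low Tag iUC and normal bladder marked apart, for CDH1 against SNAI2, VIM against SNAI2, VIM against ZEB2, and ZEB1 against the mean of the endothelial markers. The inverse trend of CDH1 and SNAI2 over the low Tag arrays (r = -0.78) is -0.41 without 2 tumors, and 1 low Tag tumor stands apart from the others in ZEB1 and the endothelial mean (1.35).

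The members were also set against the 5 cell type marker means within each Tag set, a family of 100 relations added after the values had been seen. By permutation 1 of the 100 had an adjusted p of 0.05 or below for Pearson's r, 5 for Spearman's rho, and 19 had an unadjusted p of 0.05 or below for Pearson's r. ZEB1 followed the endothelial marker mean, with r = 0.95 and rho = 0.86 over the 11 low Tag arrays (permutation p = 1.60e-04 and 9.70e-04, adjusted p = 0.0160 and 0.0408), and r was 0.82 without 2 tumors. Over the 7 high Tag arrays r was 0.90 and rho 0.68 (exact permutation p = 0.0109 and 0.110, adjusted p = 0.119 and 0.378), and r was 0.49 without 2 tumors. ZEB2 and VIM each followed the fibroblast marker mean over the low Tag arrays, with rho = 0.85 for both (n = 11, permutation, adjusted p = 0.0408). Their r of 0.83 and 0.76 had an adjusted p of 0.119 by permutation. The leukocyte marker mean was followed by ZEB2, with rho = 0.86 and r = 0.76, and by ZEB1, with rho = 0.85 and r = 0.45, over the same arrays (n = 11, permutation, adjusted p = 0.0408 for each rho, 0.119 and 0.483 for r). Over the 7 high Tag arrays these r were 0.79 and 0.73 (exact permutation, adjusted p = 0.119 and 0.327), and that of ZEB1 was -0.52 without 2 tumors. ESRP1 had r = 0.70 with the urothelium marker mean over the low Tag arrays and 0.64 over the high Tag arrays, at an adjusted p of 0.119 and 0.148 by permutation (n = 11 and 7). CDH1 had r = 0.57 with the urothelium mean over the low Tag arrays, -0.31 without 2 tumors, and 0.25 over the high Tag arrays. With the fibroblast mean, CDH1 had r = 0.81 and rho = 0.93 over the 7 high Tag arrays (exact permutation, adjusted p = 0.134 and 0.112). That r was 0.80 without 2 tumors, and it was 0.09 over the low Tag arrays. Against the smooth muscle mean, r over the low Tag arrays was 0.17 for ZEB1, -0.02 for ZEB2, -0.006 for VIM and -0.10 for SNAI2. Over the high Tag arrays these r were 0.21, -0.34, -0.09 and -0.45.

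Over the 18 iUC samples, after the mean of each Tag set had been subtracted, the genes most like each of 5 members among 15105 others were found by Pearson r of gene means, as a description without a test. ZEB1 was most like LAMA4, a laminin chain of vessel walls (r = 0.97), PLVAP, a protein of endothelial fenestrae (0.96), and THY1, a surface protein of fibroblasts and vessels (0.96). ZEB2 was most like ENPP2, which codes for autotaxin (0.90), and the matrix genes FBN1 (0.87) and THBS4 (0.87). VIM was most like the matrix genes COL4A1 (0.88), SPARC (0.85) and COL1A2 (0.85). CDH1 was most like TPGS2 (0.89), SFT2D2 (0.85) and ADAR (0.84), and ESRP1 most like ANP32A (0.82), PSMD9 (0.78) and LRBA (0.78), none of which is in the epithelial list.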

How the data were processed

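Expression was measured on 1 array for each of 18 iUC and 4 normal bladder samples, which were grouped by their titles. The deposited log2 values of 43035 probe sets came from GeneSpring GX 12.6.1, and the authors had subtracted the median of the 22 arrays from every probe set. How probes were summarised and how arrays were normalized against each other is not stated there, and both steps can move the differences between groups. Genes were named from the platform annotation, by probe sets with 1 symbol. With 111 control probe sets left out, the groups were compared over 42924 probe sets in limma (version 3.58.1, R version 4.3.3) by lmFit and eBayes without covariates, and p-values were adjusted by Benjamini-Hochberg over all of them. The fit took 1 variance for both groups of a probe set. Where the 4 normal samples spread more than the 18 iUC samples, standard errors and p-values can therefore be too small. At the ZEB1 probe set Cfa.12856.1.A1_s_at, the standard deviation was 0.32 in iUC samples and 1.96 in normal bladder. SNAI2 (0.84 and 0.33) and VIM (0.74 and 0.21) spread more in iUC samples. The expression filter of the methods needs levels, which centred values lack, so every probe set was tested. For gene lists the probe sets of a gene were averaged and 15115 genes were fitted.

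The 10 genes and the gene lists were chosen with earlier results of these data known. Named genes are the 10 members, the called genes of largest change in each list (at most 3), and the 3 genes most like each of 5 members, and other list genes were named for their role after their values were seen. Relations were tested two-sided by permutation, exactly for 7 arrays and with 100000 permutations for 11, and adjusted over each family. Alternatives were other scalings, array weights, blocks, a filter on the spread, the methods' unpaired test, gene means, 1 probe set for each gene in the relations, and subsets of samples. On simulated data, the comparison of 18 with 4 samples recovered 86% of probe sets changed by 1.5 on the log2 scale and 98% of those changed by 3, with 7 false calls. The simulated samples were independent, without Tag sets and with 1 spread for both groups of a probe set. The measured samples differ in each of these, so the simulated rates may not hold for them. Tables and figures were made with Python 3.11, pandas 2.3.3 and matplotlib 3.10.9. The number of arrays, and of normal samples in particular, limits the precision.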

Additional observations from a re-analysis of the deposited data

How the results depend on the processing

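SNAI2, ZEB2 and the ZEB1 probe set CfaAffx.6949.1.S1_s_at were called under all alternatives run. Of the 16 probe sets, 1 was called higher in iUC samples, in place of 2, after quantile normalization, with normal bladder replicates 3 and 4 averaged and with the mean of probe sets as unit, where 4 genes were called lower. With the ending of the sample description as a block limma called 0 higher (1 had a fold of 2 or more at an unadjusted p of 0.05 or below) and 3 lower. The replicate numbers gave no pairing, since deviations of same-numbered samples correlated between -0.23 and 0.14 over 4 numbers. The fit with the replicate block over numbers 1 to 4 called 1 higher and 3 lower, and the same 8 samples without the block 1 higher and 4 lower. Leaving out 1 normal sample gave 1 to 3 higher and 7 to 8 lower. Directions turned for Cfa.13125.1.A1_a_at of CDH2, at 0.037 after scaling to the 75th percentile and 0.047 with the ending as a block, and, with the high Tag iUC arrays alone, for CfaAffx.14676.1.S1_at of ESRP1 (-0.22), Cfa.18085.1.S1_s_at of ZEB1 (0.15) and TWIST2 (0.016), and the cause was not tested. Over the single log2 fold changes and all alternatives, the call was lost 30 times and gained 6 times (SNAI1 among them, at 1.05 after 75th percentile scaling), and the direction turned 5 times. In these counts the gene mean, where it was the unit, stood for each probe set of its gene. Cfa.18085.1.S1_s_at of ZEB1 thus counts as a gain at the ZEB1 mean of -2.60, and losses of ESRP1 and CDH2 in that setting are those of gene means. Over all probe sets, 1676 higher and 4577 lower calls became 765 and 1626 after quantile normalization, 908 and 3336 with replicates 3 and 4 averaged, 232 and 467 with the replicate block and 33 and 889 with the ending as a block. Higher calls made up 26.8% of all calls, 38.6% after 75th percentile scaling, which moved the median of all probe sets by 0.12, 36.7% with array weights and 40.8% without the high Tag arrays. Relations among the genes with an adjusted p of 0.05 or below stayed at 0 of 90 in each of the 4 alternatives run, with 9 to 12 at an unadjusted p of 0.05 or below.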

Other observations

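Among the low Tag tumors, iUC replicates 12 and 16 had the highest SNAI2 values, 1.43 and 1.54, and the lowest CDH1 values of these 11 were theirs, -0.01 and -0.62. They differed in ZEB1 (CfaAffx.6949.1.S1_s_at), at 3.09 in replicate 12 and -0.31 in replicate 16, and in ZEB2, at 0.69 and -0.15. VIM was 0.93 in replicate 12, the highest of the 18 iUC samples, and 0.55 in replicate 16. The endothelial marker mean of replicate 12, 1.35, was also the highest of the iUC samples. Both tumors were singled out after their values had been seen. Without replicate 12 the r of CDH1 and SNAI2 over the other low Tag arrays was -0.73. Replicates 12 and 16 are the 2 farthest from the CDH1 median of the low Tag arrays, and without both the r was -0.41.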
